A study of Mus musculus with 5 samples.

Results

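The genes followed here are 10 immediate early genes of the mouse: Fos, Fosb, Fosl2, Jun, Junb, Egr1, Egr2, Egr3, Ier2 and Dusp1. They were chosen by name, as a class and with earlier results of these data known, so their counts are a description and not an independent test. Every probe set annotated to one of these symbols alone was read, which gave 14 of the 45101 probe sets on the array and 10 of 18193 genes. Primary chondrocytes, the cells that make cartilage, came from the ribs of FVB embryos of gestational day 18.5. They were plated on gelatin-coated dishes and kept in medium with 10% serum, ascorbic acid and 10 mM beta-glycerophosphate. RNA was hybridised to 5 oligonucleotide arrays, 1 each for days 2, 6, 9, 12 and 15 of culture, so the design asks which messages differ along the culture. All groups share the strain, the tissue and the medium. The labels state a regular change of medium on alternate days but not the hours between the last change and harvest, nor whether the dishes shared an isolate.

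Immediate early genes are transcribed within minutes of a stimulus such as serum, a growth factor or mechanical load, without prior protein synthesis, and their messages are short-lived. Fos proteins pair with Jun proteins to form AP-1, a dimeric transcription factor, while the EGR proteins are zinc finger transcription factors that bind GC-rich sites. Dusp1 removes the activating phosphates from MAP kinases, the enzymes that carry many of these signals to the nucleus, so it acts as a brake. In cartilage and bone, AP-1 is known as a regulator of matrix metalloproteinase genes.

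Of the 10 genes, 7 had an entry in the RefSeq promoter table (build GRCm38.p6), and Egr1, Egr3 and Ier2 were not looked up elsewhere. For each, the 250 bases before the start site were searched on both strands for the core of the cyclic AMP response element (CRE), TGACG, the full element TGACGTCA, the AP-1 site TGACTCA, its variant TGACATCA, and the CArG box bound by serum response factor. The TATA box, TATAAA, was searched on the coding strand. A full element holds a core on each strand, so these matches overlap. The sequences of Fos, Egr2, Jun and Dusp1, chosen with their intensities known, are shown since their upstream windows differ in these motifs. Whether the motifs bear on the intensities was not tested. Capitals mark the matches, and each sequence runs 5′ to 3′ toward the start site. Fos lies at chr12:85473640-85473889, plus strand, Egr2 at chr10:67537619-67537868, plus strand, Jun at chr4:95052223-95052472, minus strand and Dusp1 at chr17:26508473-26508722, minus strand. Egr2 had 5 entries, of which the one with the middle start site is shown.
Fos: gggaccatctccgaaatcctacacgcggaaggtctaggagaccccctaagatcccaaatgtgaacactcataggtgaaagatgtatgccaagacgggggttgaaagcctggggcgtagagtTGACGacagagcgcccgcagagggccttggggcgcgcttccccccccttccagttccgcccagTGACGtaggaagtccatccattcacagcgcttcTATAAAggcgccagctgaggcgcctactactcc
Egr2: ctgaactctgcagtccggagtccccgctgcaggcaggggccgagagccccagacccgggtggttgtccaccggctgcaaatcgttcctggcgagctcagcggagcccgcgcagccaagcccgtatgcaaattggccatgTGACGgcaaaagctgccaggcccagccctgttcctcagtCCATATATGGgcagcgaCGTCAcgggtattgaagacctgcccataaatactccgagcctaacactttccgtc
Jun: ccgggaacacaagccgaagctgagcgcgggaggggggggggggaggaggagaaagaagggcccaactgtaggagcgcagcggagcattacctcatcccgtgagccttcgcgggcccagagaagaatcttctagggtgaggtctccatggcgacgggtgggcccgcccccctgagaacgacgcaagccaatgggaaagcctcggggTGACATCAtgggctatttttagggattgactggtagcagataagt
Dusp1: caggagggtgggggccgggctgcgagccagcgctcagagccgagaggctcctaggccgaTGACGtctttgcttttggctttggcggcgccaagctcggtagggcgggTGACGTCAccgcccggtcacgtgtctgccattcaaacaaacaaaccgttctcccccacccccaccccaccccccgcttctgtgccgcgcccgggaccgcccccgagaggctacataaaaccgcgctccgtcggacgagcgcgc

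The CRE core was present in 5 of the 7 windows (Fos, Fosb, Junb, Egr2 and Dusp1) and in 17.8% of all 32841 windows of this length in the table. Fos held it at -129 to -125 and at -66 to -62 from the start, with a TATA box at -33 to -28. In Egr2 it lay at -111 to -107 and, on the other strand, at -55 to -51, on either side of a CArG box at -72 to -63. A CArG box was present in 1.47% of all windows and in none of the other 6 searched here. Sequence farther than 250 bases before the start was not searched, so a CArG box there would not be seen. Dusp1 held the full element at -143 to -136, found in 1.55% of windows. Jun and Fosl2 lacked the core, and Jun held the variant AP-1 site at -45 to -38, found in 2.93% of windows. The variant was added to the search after the sequences were seen. These matches describe letters in a window and are not measured binding.

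Each value is the linear intensity of a probe set. All arrays came with the same trimmed mean, so a change common to most messages is not visible. Intensities under 73.1, the 40th percentile of all values, were raised to that floor before log2 was taken, and each gene was read from the brightest of its probe sets. Folds were taken after this step, so for dim genes they are too small. A gene was kept where its mean intensity reached 105.93, which left 11075 genes, 9 of the 10 immediate early genes among them. All 9 would also have passed on the mean of the other 4 days without day 9, and Fosb alone did not pass. With 1 array per day there is no replicate error between days, and no p-value is given for a difference between days. As a guide to probe error, the SD of a log2 difference read from 1 probe set was 0.59 for day 9 against day 2, 0.43 for day 9 against day 6 and 0.35 for day 12 against day 9, over 3013 genes with 2 probe sets above the same mean. That spread leaves out variation between dishes, labelling and arrays. Median intensities per array lay between 106 and 118, lowest on day 9, with 58.8% to 61.9% of probe sets at or above the floor.

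Fos had the sharpest day 9 maximum of the 11075 genes kept. Fos, the founding AP-1 subunit and the most used marker of recent stimulation, had intensities of 454, 539, 7631, 739 and 508 at days 2, 6, 9, 12 and 15. Day 9 stood alone, and the other 4 days lay close together. Fos was 14.2-fold higher on day 9 than on day 6, the 7th largest increase of 11075 genes, and 10.3-fold lower on day 12 than on day 9, the largest decrease of all. On day 15 it had 508, against 454 on day 2, a log2 difference of 0.16. In a bulk sample, a change in the number of cells that hold a message and a change in the message per cell cannot be told apart.

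The other Fos family members did not share this course above the floor. Fosb, a close relative of Fos, read 10.2, 15.5, 71.6, 42.3 and 42.2, all below the floor of 73.1. Its highest reading also fell on day 9, but no fold is given for values at this level. Fosl2 (Fra-2), a subunit known for roles in cartilage and bone formation, had 2063, 3330, 3771, 2928 and 5430 in order of day. It was highest on the last day, 2.63-fold higher on day 15 than on day 2 and 1.13-fold higher on day 9 than on day 6. The dimmer probe set of Fosl2 read 207, 77.7, 92.0, 173 and 355, with its highest value on day 15 as well. The probe sets of Fosl2 disagreed in direction: on day 9 against day 2 the log2 difference was 0.87 by the brighter and -1.17 by the dimmer. On day 12 against day 9 it was -0.37 by the brighter and 0.91 by the dimmer.

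**Figure D1:**
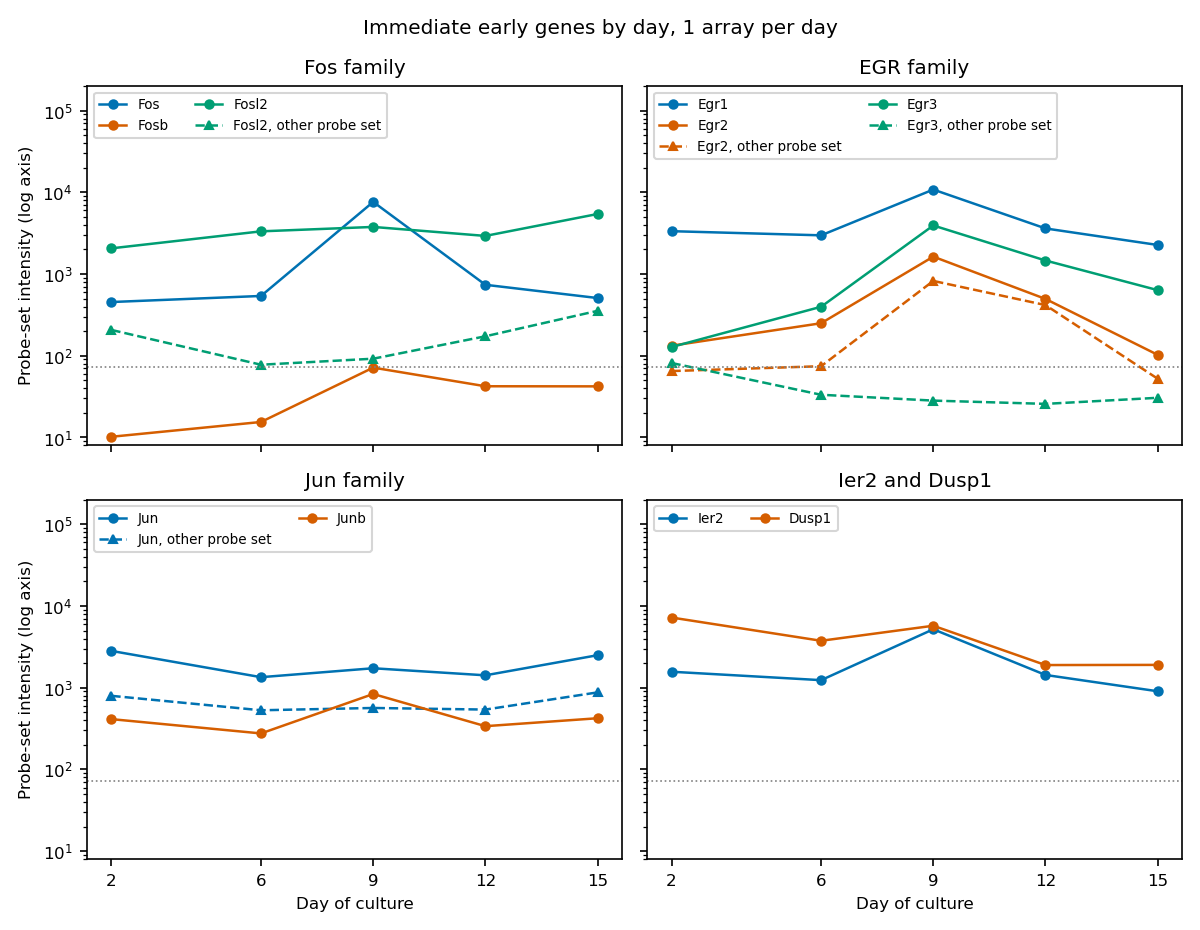
Probe-set intensity (log axis) of the 10 immediate early genes on days 2, 6, 9, 12 and 15, 1 array per day, with solid lines for the brightest probe set of a gene, dashed lines for a second one and a dotted line at the floor of 73.1. Fos stands at 7631 on day 9 and between 454 and 739 on the other days, the brightest EGR probe sets are also highest on day 9, and Jun and Fosl2 are not.

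All 3 EGR genes were highest on day 9 by their brightest probe sets. Egr1, a rapid sensor of growth factor and mechanical signals, had 3346, 2976, 10808, 3614 and 2269 in order of day. It was 3.63-fold higher on day 9 than on day 6 and 2.99-fold lower on day 12 than on day 9. Egr1 was thus present at a readable level on every day, with day 9 above a steady series. Egr2 (Krox20), best known from Schwann cell myelination and also expressed in bone, had 133, 250, 1633, 496 and 103. That made it 6.53-fold higher on day 9 than on day 6, and 15.9-fold lower on day 15 than on day 9. The dimmer Egr2 probe set read 64.9, 74.5, 824, 417 and 52.3, which also put the maximum on day 9, with day 12 at 1.98-fold under it.

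Egr3, known for its roles in muscle spindle and lymphocyte development, read 128, 398, 3930, 1464 and 635. It differed from the other EGR genes in that every later day lay above day 2: it was 3.11-fold higher on day 6, 30.8-fold higher on day 9 and 4.97-fold higher on day 15 than on day 2. The result for Egr3 rests on 1 probe set, and with its probe sets averaged the log2 difference between day 9 and day 6 was 1.65, against 3.30. Its dimmer probe set read 81.6, 33.3, 28.3, 25.8 and 30.6, below the floor on 4 of 5 days, and showed no maximum on day 9. Both probe sets are annotated to Egr3 and which of them reports the transcript better was not tested.

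The Jun genes parted. Junb, the AP-1 subunit that often opposes c-Jun, had 413, 276, 838, 338 and 423, with day 9 3.04-fold higher than day 6 and 2.03-fold higher than day 2. Jun, which encodes c-Jun, had 2821, 1346, 1731, 1419 and 2500, so the first and last days were high and the middle days low. It was 2.10-fold lower on day 6 than on day 2 and 1.29-fold higher on day 9 than on day 6. The dimmer Jun probe set gave a similar shape, with 796, 530, 565, 540 and 877, but was highest on day 15 and not on day 2. On day 9, therefore, the Fos array reading was the highest of the course while that of its partner Jun was below days 2 and 15.

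Ier2, a small nuclear protein gene of the same early class, followed Fos, with 1569, 1238, 5193, 1433 and 905. It was 4.20-fold higher on day 9 than on day 6 and 3.62-fold lower on day 12 than on day 9, the 11th largest decrease among 11075 genes. Dusp1, the MAP kinase phosphatase gene, had 7230, 3754, 5735, 1894 and 1903. Its course held a high start, a smaller second maximum on day 9 and a low end. It was 1.53-fold higher on day 9 than on day 6, 3.03-fold lower on day 12 than on day 9 and 3.80-fold lower on day 15 than on day 2.

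Counted together, 6 of the 9 measured genes stood 2-fold or more above day 6 on day 9, where 5.87% of all genes did. They were Fos, Junb, Egr1, Egr2, Egr3 and Ier2, and none stood 2-fold or more below, against 4.06% of all genes. The median log2 difference of the 9 was 1.86, and that of all genes -0.01. The following step reversed this: on day 12, 7 of 9 stood 2-fold or more below day 9, these 6 and Dusp1, where 1.51% of genes did, and the median was -1.58. None stood as far above it, against 1.72% of genes. With the day 9 array set aside, day 12 against day 6 left only Egr3 past 2-fold upward, beside 7.09% of genes, and none downward, beside 4.97%. The first step, day 6 against day 2, had Egr3 past 2-fold upward, beside 10.2% of genes, and Jun downward, beside 5.70%. The last step, day 15 against day 12, had none upward, beside 4.23%, and Egr2 and Egr3 downward, beside 3.92%. The steps into and out of day 9 were chosen for description after the values were seen, and they share the day 9 array.

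Day 9 was the highest of the 5 days for 6 of the 9, while 14.0% of all genes had their maximum there. By the brightest probe sets day 2 was highest in Jun and Dusp1, as in 32.2% of genes, and day 15 in Fosl2, as in 22.4%. None had its maximum on day 6 or day 12, where 16.0% and 15.5% of genes did. The highest day was 2-fold or more above the lowest in 9 of the 9, beside 46.6% of all genes. A stricter description asked for day 9 to lie at least 2-fold above each of the other 4 days. Fos, Egr1, Egr2, Egr3 and Ier2 met it, 5 of the 9, beside 0.181% of all genes. Only 20 of 11075 genes met it, so these 5 made up 25% of that set and 55.6% of the measured immediate early genes. The set also held 3 genes of the further immediate early lists and 12 other genes, among them the interferon-induced Ifit1, Rtp4 and Xaf1. Fos ranked 1st of all genes by this measure, with log2 intensity 3.37 above its next highest day, and Ier2, Egr2, Egr1 and Egr3 ranked 5th, 6th, 9th and 10th. Junb, 1.98-fold above its next highest day, lay just under the threshold and ranked 21st.

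**Figure D2:**
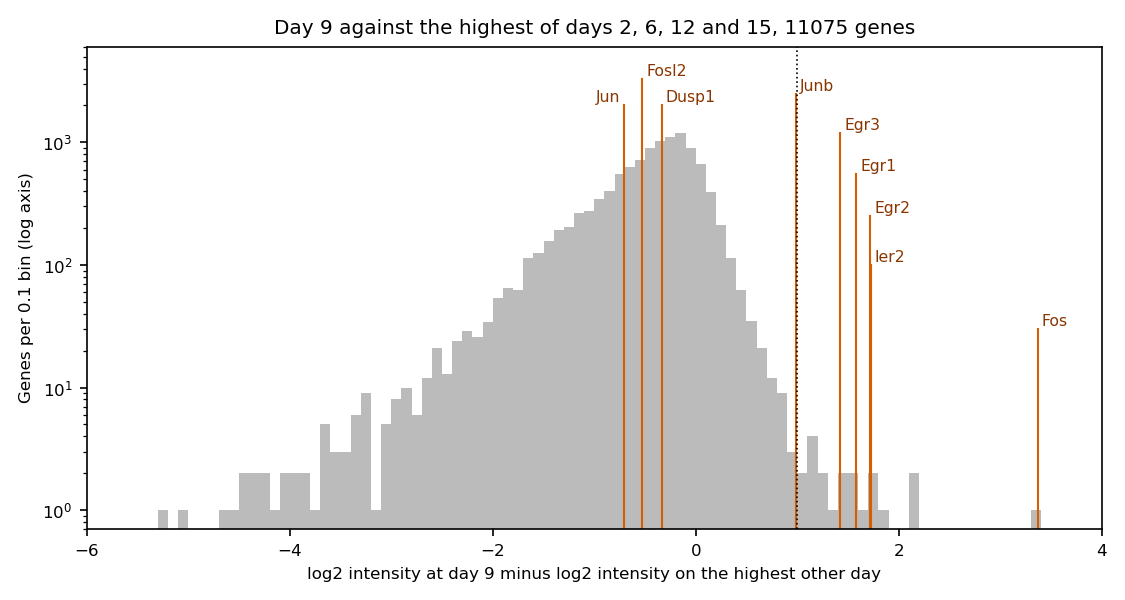
Distribution over 11075 genes of log2 intensity on day 9 minus log2 intensity on the highest of days 2, 6, 12 and 15 (counts per bin on a log axis), with the 9 measured immediate early genes as vertical lines, whose heights only space the names, and a dotted line at a difference of 1. Fos stands at 3.37, farthest to the right of all genes, while Jun, Fosl2 and Dusp1 lie left of 0.

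Across the whole course the picture was different, since a comparison of the ends does not see a maximum in the middle. On day 15 against day 2, 2 of the 9 were past 2-fold upward (Fosl2 and Egr3), where 16.2% of genes were, and 1 downward (Dusp1), where 11.6% were. Their median log2 difference was -0.17, and that of all genes 0.00. Against day 2, day 9 had 6 of 9 past 2-fold upward, where 15.1% of genes were, and none downward, where 10.3% were. Day 15 against day 9 had none of 9 upward, where 5.00% of genes were, and 6 downward, where 4.05% were. These 6 were Fos, Egr1, Egr2, Egr3, Ier2 and Dusp1.

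The test run was a straight line of log2 intensity against time, fitted with limma to the 5 arrays, a form that does not see a maximum in the middle of the course. None of the 9 genes passed an adjusted p of 0.05 (Benjamini-Hochberg over 11075 genes), and over all genes 0.0542% rose and 0% fell. At an unadjusted p under 0.05 there were 2 by limma, Fosl2 upward and Dusp1 downward, where 14.4% of genes ran upward and 12.7% downward. Dusp1 had a slope of -0.15 ± 0.04 log2 units per day (SE, 5 arrays) and a limma adjusted p of 0.103. Fosl2 had 0.08 ± 0.03 per day and a limma adjusted p of 0.160. For Fos the slope was 0.03 ± 0.14 per day with a limma adjusted p of 0.903, with day 9 far off the line. The p-values measure only the spread of these arrays about a line, which may be partly technical.

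Other immediate early genes were read from 2 lists, transcription factors and genes with other roles, with 29 measured members. Of these, 3 had day 9 at least 2-fold above each other day: Nr4a1, Zfp36 and Btg2. Nr4a1 (Nur77), an orphan nuclear receptor, had 232, 283, 1789, 501 and 290 in order of day. Zfp36 (tristetraprolin), which binds AU-rich messages and speeds their decay, had 321, 336, 1877, 608 and 480. Btg2, an antiproliferative gene, had 868, 885, 2889, 1227 and 1103, and its other probe set was also highest on day 9. These 3 had the course of Fos in smaller size. Day 9 was the highest day for 11 of the 29 (37.9%, beside 14.0% of all genes) and day 2 for 10 (34.5%, beside 32.2%). Apart from Nr4a1, Zfp36 and Btg2, the lead of day 9 over the next highest day was narrow, from 0.05 in log2 (Klf6) to 0.54 (Klf2).

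Among the 12 measured transcription factors, 3 stood 2-fold or more above day 6 on day 9 and 0 below, beside 5.87% and 4.06% of all genes, shares that also apply to this step in the lists that follow. The median log2 difference was 0.53. Those 3 were Nr4a1, Klf6 and Maff, the last from a day 6 reading under the floor. Bhlhe40, a clock and hypoxia responsive repressor, was instead highest on day 15, with 475, 380, 496, 589 and 2321. Csrnp1 was highest on day 2, with 484, 197, 199, 178 and 37.4 in order of day, by its brightest probe set, while its other probe set was highest on day 6. Of the 17 measured genes with other roles, 4 stood 2-fold or more above day 6 on day 9 and 0 below, and the median was 0.41. They were Zfp36, Btg2, Ccn1, a matricellular protein gene, and Plk3, whose day 6 reading was under the floor. Ptgs2, the inducible prostaglandin synthase, had 9162 on day 2 and between 594 and 2078 afterwards, and Ier3 was highest on day 15 at 5456. The share of this class highest on day 2 was thus near that of all genes.

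**Figure D3:**
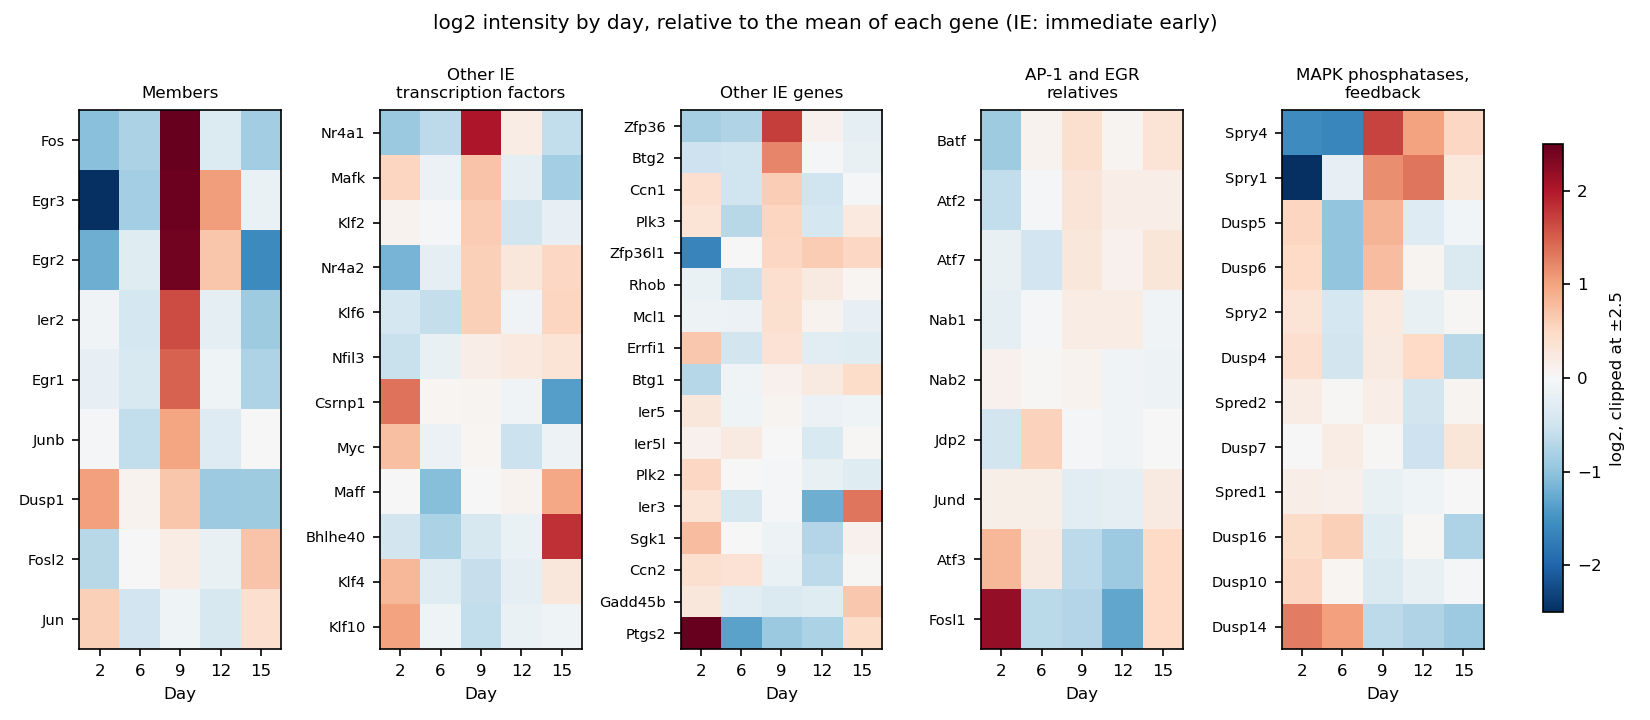
log2 intensity on days 2, 6, 9, 12 and 15, relative to each gene's own mean over the 5 arrays, for the measured immediate early genes, 2 lists of other immediate early genes, relatives of AP-1 and EGR, and feedback inhibitors (red higher, blue lower, clipped at 2.5). Fos, the EGR genes, Ier2, Nr4a1, Zfp36 and Btg2 are reddest on day 9, and Fosl1, Ptgs2 and Dusp14 on day 2.

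The remaining partners of AP-1 and EGR were nearer level around day 9. In that list 9 of 12 genes were measured, and 0 stood 2-fold or more above or below day 6 on day 9, where the median log2 difference was 0.07. Fosl1 (Fra-1), the Fos relative linked to cell migration, had 4168, 577, 550, 373 and 1299, so it was highest on day 2, and its other probe set was too. Atf3, a stress-induced factor, had 242, 160, 87.4, 69.0 and 193, lower in the middle of the course, and Batf had 102 on day 2 and between 196 and 247 later. Nab1 and Nab2, which encode corepressors of EGR proteins, were within 1.5-fold over all days.

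Feedback inhibitors of the MAP kinase pathway were read at both steps around day 9. Of 12 measured members, 1 stood 2-fold or more below day 9 on day 12, beside 1.51% of all genes, and 0 had day 9 2-fold or more above every other day. At the step into day 9, 4 stood 2-fold or more above day 6 on day 9 and 1 below, and the median was 0.41. The 4 were Dusp5, Dusp6, Spry1 and Spry4. Spry4, a Sprouty inhibitor of receptor tyrosine kinase signals, read 76.3, 13.3, 728, 452 and 324, at least 9.96-fold higher on day 9 than on day 6. A second probe set of Spry4 gave a log2 difference of 1.88 for that step, and its 2 dimmest gave 0.17 and 0.00. Dusp6, the ERK phosphatase, had 2057, 737, 2495, 1533 and 1139, which placed day 9 just above day 2. Dusp14 was the lower member, with 325 on day 9, against 1043 on day 6. Spry1 had 46.8, 382, 982, 1115 and 529, highest on day 12.

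Upstream kinases and transcription factors were nearly level. Of 17 measured members 1 stood 2-fold or more above day 6 on day 9 and 0 below, and the median was -0.13. That member was Srf, serum response factor, with 711, 423, 865, 623 and 384, and its dimmer probe set differed by 0.18 on the log2 scale at that step. Crem and Rps6ka5, the other members named by spread, ranged from 152 to 366 and from 117 to 293. Among matrix and inflammatory genes known as AP-1 targets, 3 of 11 stood 2-fold or more above day 6 on day 9 and 1 below, and the median was 0.45. Mmp13, collagenase 3, rose through the course with 456, 1124, 4198, 6726 and 12995, and was the only gene of any list with a limma trend past the threshold (adjusted p 0.0399). Plaur and Cd44 were both highest on day 2, at 4803 and 8883. The courses of Plaur, Cd44 and Mmp13 did not have the maximum of Fos on day 9. The 3 targets above day 6 were Mmp13, Il6 and Ccl2, and Timp1 was the member below. Il6 did have its maximum on day 9, with 12.1, 140, 326, 199 and 84.5, the first of them under the floor. Ccl2 had 242, 161, 453, 487 and 135, highest on day 12.

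The steps around day 9 given for these lists were chosen after their values were seen. Between day 9 and day 2, the counts past 2-fold upward and downward were 3 and 3 of 12 immediate early transcription factors, 3 and 1 of 17 other immediate early genes, and 1 and 2 of 9 relatives of AP-1 and EGR, where 15.1% and 10.3% of all genes were. For that comparison they were 2 and 1 of 12 feedback inhibitors, 0 and 0 of 17 upstream factors, and 3 and 4 of 11 AP-1 targets. Set beside these, 6 of the 9 measured members were past 2-fold upward and none downward. Between day 15 and day 2, where 16.2% of all genes were past 2-fold upward and 11.6% downward, the transcription factors had 2 upward and 3 downward, the other immediate early genes 2 and 1, and the relatives 1 and 1. The feedback inhibitors had 2 and 3, the upstream factors 0 and 0 and the targets 3 and 2. Between day 15 and day 9, where 5.00% of all genes were upward and 4.05% downward, the transcription factors had 1 upward and 3 downward, the other immediate early genes 3 and 2, and the relatives 2 and 0. The feedback inhibitors had 0 and 2, the upstream factors 0 and 1 and the targets 6 and 2, while the members had none upward and 6 downward. With 9 to 17 genes a list, many of these counts lie near the share of all genes.

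Likeness to Fos was measured as the root mean square difference of log2 intensity over the 5 arrays, each gene centred on its own mean. The 8 nearest of 9879 candidate genes above the floor on every day, leaving out the members, were Nr4a1 at 0.53, Ifit3 at 0.63, Zfp36 at 0.68, Btg2 at 0.92, Irf9 at 0.98, Cxcl5 at 1.02, 4933431E20Rik at 1.04 and Snorc at 1.04. The median candidate lay at 1.56. Among the members themselves Egr2 lay at 0.67, Ier2 at 0.77, Egr1 at 0.82, Egr3 at 0.98 and Junb at 1.09, while Dusp1, Fosl2 and Jun lay at 1.47, 1.51 and 1.69. The measure rests on 5 arrays and largely on the day 9 value.

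Cell composition and RNA quality were read on the same arrays. Chondrocyte markers were all measured, 11 of 11, and their summed intensity was 124243, 141806, 84410, 32035 and 40773 in order of day. Over the days around the Fos maximum the summed adipocyte markers had 12193 on day 6, 56797 on day 9 and 97997 on day 12, and osteoblast markers 18501, 59164 and 92742. The endothelial and erythroid lists had 0 genes above the intensity filter, and the highest day of their sums is not informative. Of 11 marker lists, these included, 0 had the highest sum on day 9, where 6 of the 9 measured members had their maximum. These sums are carried by their brightest genes, and of 53 single markers measured 7 were highest on day 9, or 13.2%, beside 14.0% of all genes. These 7 were the cartilage genes Matn1, Matn3 and Ucma, the fibroblast marker Dcn, the adipocyte marker Plin4 and the glial markers S100b and Sox10. They were named after their values were seen. S100b was counted by its brightest probe set, and its other probe set was highest on day 6. Matn1 had 213, 1154, 2255, 874 and 745 in order of day and ranked 22nd of all genes by its day 9 maximum, next after Junb. All 6 endothelial markers and the 2 erythroid markers with a probe set lay below the intensity filter. Of 11 macrophage and osteoclast markers, 5 lay below it (Ptprc, Itgam, Tyrobp, Fcer1g and Ocstamp) and 6 above it (Csf1r, Adgre1, Cd68, Cd14, Acp5 and Ctsk), and the summed intensity of the list was 2555, 2521, 3633, 5613 and 6620. Csf1r had 380, 172, 156, 249 and 313, and Cd14 had 447, 173, 76.3, 168 and 128, both lowest on day 9. Ctsk and Acp5 instead ran upward, with slopes of 0.19 and 0.17 log2 units per day, neither past the adjusted threshold. Day 9 against day 2 had 2 of the 6 past 2-fold upward and 3 downward, beside 15.1% and 10.3% of all genes. The part of cell composition in the members' values was not tested. The ratio of 3' to 5' control probe sets was 1.27 on day 9 for Actb, within a range of 1.17 to 1.27, and 0.616 for Gapdh, within 0.616 to 0.798. Day 9 was thus at the edge of both ranges, and the part of RNA quality, or of the unstated hours since the last change of medium, in the day 9 values was not tested.

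**Figure D4:**
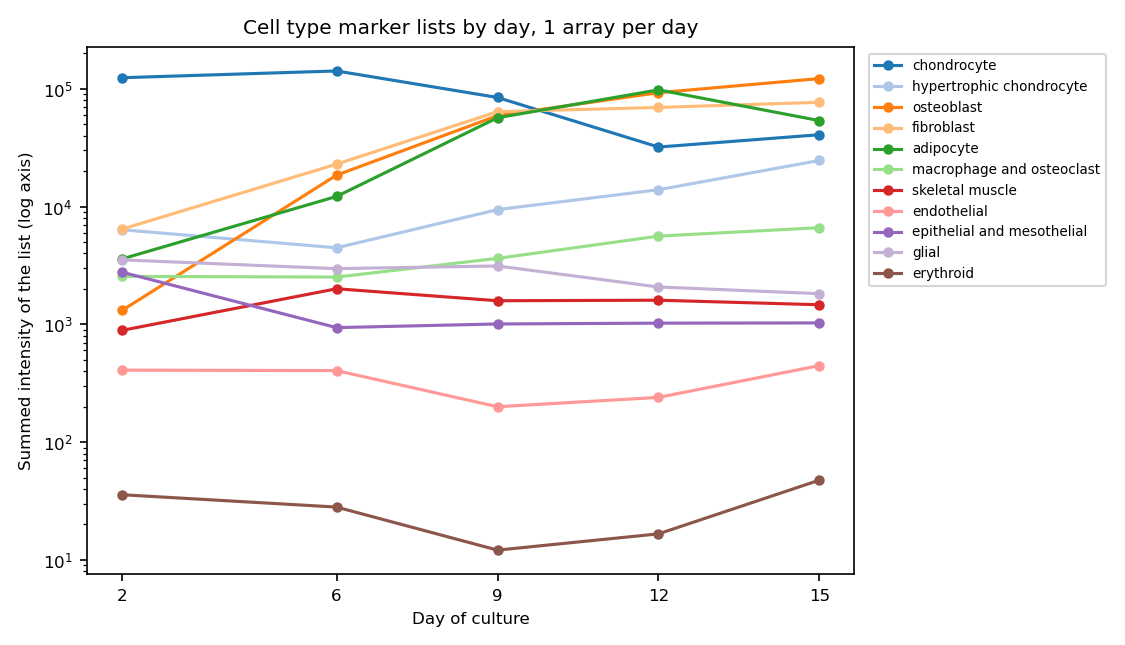
Summed intensity (log axis) of 11 cell type marker lists on days 2, 6, 9, 12 and 15, 1 array per day, over all list genes with a probe set. The chondrocyte sum is 141806 on day 6 and 32035 on day 12, the adipocyte, osteoblast and fibroblast sums are higher from day 9 on, and no list has its maximum on day 9. The endothelial and erythroid lists hold 0 genes above the intensity filter.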

How the data were processed

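Total RNA of cultured chondrocytes was measured on 5 single-colour arrays. The authors deposited linear intensities per probe set, computed with MAS5 per the submitters' processing notes. After trimming 2% from either end, every array averages 500.0. Scanner files are not analysed here.

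Of 45101 probe sets, 64 were controls, 34945 carried 1 gene symbol, 932 several and 9160 none. Symbols followed the platform annotation, updated through a RefSeq table of GRCm38.p6 for 34741 probe sets. The floor was the 40th percentile of all values and the filter the median probe-set mean. The trend used limma 3.58.1 in R 4.3.3 (lmFit, eBayes, two-sided, 3 residual and 2.83 prior degrees of freedom) and was tested on simulated data. Other steps used Python 3.11.15, pandas 2.3.3 and numpy 2.4.6, and figures matplotlib 3.10.9. Precision is limited by the number of arrays.

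The members and lists were chosen with earlier results of these data known. Named genes were all 10 members, the 3 members of each further list with the largest range, the 8 genes nearest to Fos, and list members past the trend threshold. Klf2, Klf6, Maff, Plk3, Ccn1, Dusp5, Dusp6, Nab1, Nab2, Il6, Ccl2, Timp1 and the single cell type markers were named after their values were seen. So were Nr4a1, Zfp36 and Btg2 where they were counted as day 9 maxima. Promoter sequences are RefSeq's. Alternatives were quantile normalization, median centring, a floor at the 20th or the 60th percentile, a pseudocount, the mean over probe sets, no filter, a filter at the 70th percentile, pooled days, and leaving out each array in the trend.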

Additional observations from a re-analysis of the deposited data

How the results depend on the processing

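The number of immediate early genes at least 2-fold different changed by more than 1.5 times in 2 cases. With days 12 and 15 averaged against days 2 and 6, 1 gene was higher, against 2 in the comparison of day 15 with day 2. With the mean over probe sets, 1 gene, Fosl2, was higher at day 15 than at day 9, against 0 by the brightest. The other counts of members (day 9 against day 2, day 9 against day 6, day 12 against day 9, and day 9 against each other day) stayed within 1.5 times under quantile normalization, median centring, a floor at the 20th or the 60th percentile, a pseudocount of 73.1, the mean over probe sets, no filter and the 70th percentile filter. Fos ranked 1st by its day 9 maximum under all of these, while the genes meeting that description numbered between 11 with the 70th percentile filter and 32 with no filter, against 20 as reported. Of the single gene values recomputed, 355 moved by less than the spread between probe sets. The other 14, all of Egr2, Egr3 and Fosl2, moved by more, and no value past 2-fold changed sign. Values of day 15 against day 9 were judged by the spread of day 9 against day 2, an SD of 0.59. Part of the 355 were fixed in advance. A filter does not alter the value of a gene, and averaging does not alter a gene with 1 probe set. Nor does a floor below all readings of a gene, so the count of 355 is not a measure of stability. Egr3 was among the 14 that moved: its log2 difference of day 9 against day 6 was 3.30, and 1.65 as the mean over probe sets. Median centring moved the median of all genes by 0.14 in log2 for day 9 against day 2, for day 15 against day 2 and for day 9 against day 6. The limma trend called 0 members without any 1 of the 5 arrays and under every other alternative run for it, and 2 were at an unadjusted p under 0.05 in the fit reported above. The steps around day 9 and the day 9 maximum were chosen after seeing the data. No value at day 9 has a second array behind it, and leaving out the day 9 array removes these comparisons. No paired analysis was possible because each day had 1 array.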

Other observations

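Besides the 5 immediate early genes and Nr4a1, Zfp36 and Btg2, 12 genes had day 9 at least 2-fold above each other day. They were named after their values were seen: Usp18, Ifit1, Ifit3, Oasl2, Rtp4, Irgm2, Xaf1, Crtc2, Nmb, Fam124b, Snorc and Gm9706. Ifit1, an interferon-induced gene, read 12.5, 13.9, 930, 216 and 66.1 in order of day, and Usp18, the protease that removes the ubiquitin-like protein ISG15, read 106, 65.7, 728, 159 and 20.1. Rtp4 and Xaf1, both also known as interferon-induced, had 3563 and 1921 at day 9, and their next highest readings, at day 12, were 1594 and 955. Of the other probe sets of these genes, that of Rtp4 was highest on day 9 as well and that of Xaf1 was not. Ifit1, Usp18, Rtp4 and Xaf1 all read above their day 6 value at day 12, and Fos did so by a small margin, with 739 at day 12 and 539 at day 6.

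Crtc2, a coactivator of CREB, the protein that binds the cyclic AMP response element, read 49.7, 84.2, 268, 106 and 94.2 by its brightest probe set. Its other probe set read 169, 24.9, 77.6, 107 and 127, with the maximum at day 2. Snorc, a membrane proteoglycan gene of chondrocytes, had 1693, 1139, 3667, 1303 and 1581.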
